A study of Mus musculus with 20 samples.

Results

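The ligands of the TNF superfamily were followed in dendritic cells cultured from mouse bone marrow (BMDCs), through 10 genes chosen by symbol: Tnf, Lta, Ltb, Tnfsf4, Tnfsf9, Tnfsf10, Tnfsf12, Tnfsf13, Tnfsf13b and Tnfsf14. All 10 were found among the 24421 genes counted by RNA-seq, and all 10 were among the 12465 genes with enough counts to be tested. BMDCs were grown from the marrow of wild-type C57BL/6 mice for 8 days with GM-CSF at 40 ng/mL, and the cells of each of 5 mice (A to E) were split over 4 groups. The groups combined DMSO or iBET with Ova or IC (DMSO Ova, DMSO IC and their iBET counterparts), with 5 libraries each and 20 in all. Ova is ovalbumin alone and IC is ovalbumin bound by IgG in immune complexes, each given for 4 hours. iBET is I-BET151, an inhibitor of the BET bromodomain proteins, given at 3.3 µM, and the DMSO groups received 5% DMSO. The labels name no DMSO content for the iBET groups, so an effect of the solvent and one of iBET cannot be told apart from them. The labels describe the drug and the stimulus as given together, whereas the study's methods place the drug shortly before the stimulus.

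TNF superfamily ligands are mostly membrane proteins that act as trimers, on the cell surface or after being cut free by proteases. They bind receptors of the TNF receptor superfamily, which recruit TRAF adaptors that lead to NF-κB, or death-domain adaptors that lead to caspases. Dendritic cells use members of the family to costimulate T cells (Tnfsf4, Tnfsf9, Tnfsf14), to keep B cells alive (Tnfsf13, Tnfsf13b) and to spread inflammation (Tnf). Immune complexes cross-link Fcγ receptors, which activates the cell, and BET proteins bind acetylated histones and help to recruit the transcription machinery.

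Levels are given as CPM, counts scaled to a common TMM-normalized library size, and errors are the SD over 5 mice unless stated otherwise. Each library held between 16447491 and 29245150 counts (median 21764663), so that 1 CPM stood for about 16.9 to 28.6 counts. Of the dendritic cell markers, 10 of 10 were detected in each group. Itgax averaged 1960 CPM and Cd74 2660 CPM in DMSO Ova, whereas Flt3 was low, at 3.03 CPM in DMSO Ova and 0.242 CPM in iBET Ova. Mice A and B stood apart from mice C, D and E in several ligands, and the labels name no batch behind that split.

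In the genome, 5 of the ligands lie on chromosome 17 in 2 groups. Ltb (17:35194439-35196320, plus strand) and Tnf (17:35199381-35202007, minus strand) are 3.06 kb apart, and Tnf and Lta (17:35203165-35205351, minus strand) are 1.16 kb apart. Tnfsf9 (17:57105325-57107757, plus strand) and Tnfsf14 (17:57189492-57194177, minus strand) stand on either side of Cd70, a further ligand, with gaps of 38.2 kb and 39.7 kb. Tnfsf13 (11:69682846-69685784) and Tnfsf12 (11:69686250-69695849), both on the minus strand, are 0.465 kb apart. Tnfsf4 (1:161395409-161418410), Tnfsf10 (3:27317028-27342427) and Tnfsf13b (8:10006467-10039072) lie on the plus strand of other chromosomes. Positions are those of GENCODE M21 on GRCm38. RefSeq promoter sequences (GRCm38.p6, the build called mm10 in the labels) were found for 7 of the 10 members. The upstream sequences of 3 are shown, those of Tnf, its neighbour Ltb and Tnfsf14. They were chosen because Tnf rose with IC, Ltb fell with iBET, and Tnfsf14 fell with iBET and, under DMSO, with IC. Capitals mark the motif matches found. The run of Ltb stops where the annotated gene begins.
Tnf (17:35202008-35202257, minus strand): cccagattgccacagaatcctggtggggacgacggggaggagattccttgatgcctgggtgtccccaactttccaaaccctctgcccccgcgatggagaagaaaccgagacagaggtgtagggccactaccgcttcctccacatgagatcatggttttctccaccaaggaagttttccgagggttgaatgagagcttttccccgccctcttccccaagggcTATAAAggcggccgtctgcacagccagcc
Ltb (17:35194257-35194438, plus strand): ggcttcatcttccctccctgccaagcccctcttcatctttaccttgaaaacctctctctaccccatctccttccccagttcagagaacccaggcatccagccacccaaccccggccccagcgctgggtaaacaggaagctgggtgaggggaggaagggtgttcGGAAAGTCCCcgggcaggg
Tnfsf14 (17:57194182-57194431, minus strand): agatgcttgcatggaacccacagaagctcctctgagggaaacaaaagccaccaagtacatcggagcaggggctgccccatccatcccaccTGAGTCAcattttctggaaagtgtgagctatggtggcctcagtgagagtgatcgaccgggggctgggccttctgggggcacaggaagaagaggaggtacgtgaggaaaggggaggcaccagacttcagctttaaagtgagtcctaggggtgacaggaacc
The match in Tnf is the TATA box letters TATAAA, 29 to 24 bases before the start, which 7.59% of 32851 RefSeq promoters hold on the given strand. The match in Ltb is to the NF-κB consensus, 87 to 78 bases before the RefSeq start, on the opposite strand, and 7.25% of promoters hold that consensus on either strand. The match in Tnfsf14 is to the AP-1 letters TGANTCA, 160 to 154 bases before the start, which 6.75% of promoters hold on either strand. The shares are over the 250 bases before each start. Over the members with a promoter, all RefSeq starts of a gene counted, the NF-κB consensus was found in 1 of 7, the AP-1 letters in 3 of 7 and TATAAA in 2 of 7. A gene with several starts has several chances of a match, so these counts are not comparable with the shares per promoter. The CRE letters TGACGTCA were in none of the 7 and in 1.55% of all promoters. A match describes these letters only and says nothing of binding.

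Levels can be set beside each other only per length, as CPM per kb of annotated exon. In DMSO Ova the most abundant ligand was Tnfsf12 at 25.3 ± 2.32 CPM per kb, followed by Tnfsf13 (18.3 ± 5.43) and Tnfsf4 (13.8 ± 6.31). These neighbours in the order overlapped between libraries. Tnf (5.63 ± 2.61) and Tnfsf14 (4.62 ± 0.662) overlapped too, and each Tnfsf14 library was above each of Tnfsf9 (2.99 ± 0.485). Ltb, Lta, Tnfsf13b and Tnfsf10 closed the order at 1.61, 0.441, 0.309 and 0.109 CPM per kb. In DMSO IC the order began with Tnfsf12 (35.4 ± 2.82), now above each library of Tnfsf13 (20.9 ± 3.37), and Tnf (19.5 ± 5.08) stood next to Tnfsf13. In iBET Ova it began with Tnfsf13, Tnfsf12 and Tnf at 11.4, 9.56 and 9.09 CPM per kb, and Tnfsf4 had moved below Tnfsf9 (1.76 ± 0.735 against 4.15 ± 1.07, with no overlap). In iBET IC, Tnf stood first at 19.5 ± 6.54 CPM per kb, although its libraries overlapped those of Tnfsf13 (14.7 ± 3.99). Tnfsf10 was last in all 4 groups. Of the exonic bases of Tnfsf12 and Tnfsf13, 48.3% and 60% also belong to the read-through gene Tnfsfm13. How shared reads were counted is not given, so the places of both genes in these orders are uncertain.

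**Figure D1:**
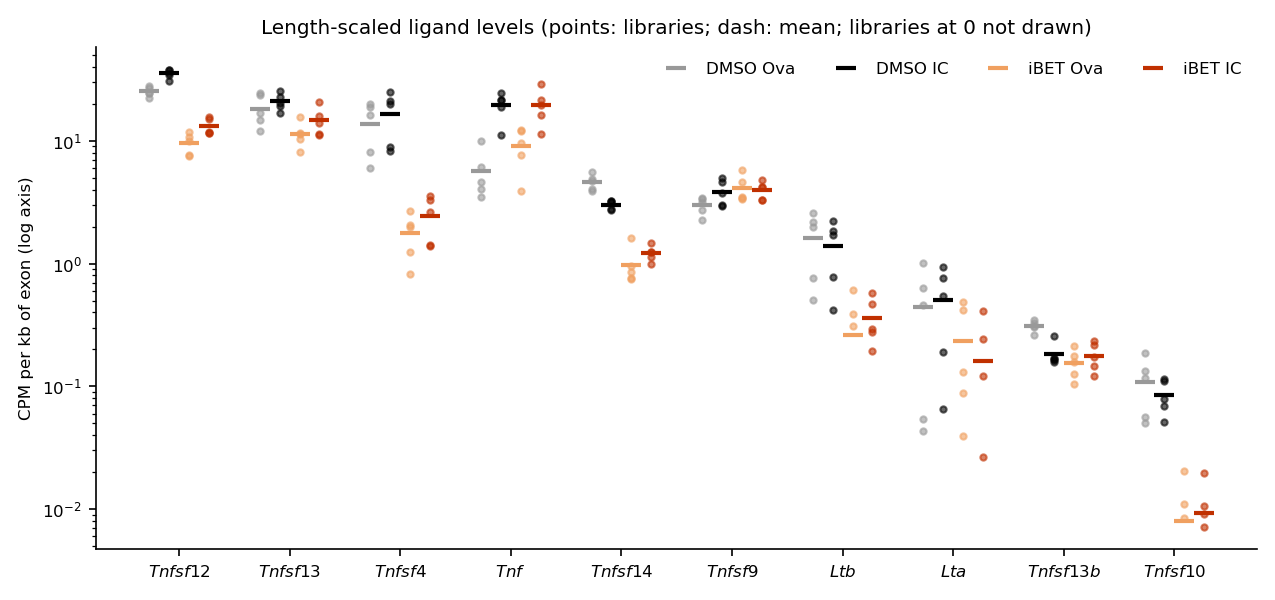
The vertical log axis gives CPM per kb of exon for the 10 ligands, with a point for each library above 0 and a dash for the mean of each group. Tnfsf12, Tnfsf13, Tnfsf4 and Tnf take the upper places in DMSO IC, and Tnfsf4, Tnfsf14, Ltb and Tnfsf10 drop with iBET while Tnf and Tnfsf9 do not.

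With iBET, most of the ligands were lower. In the edgeR quasi-likelihood test with Benjamini-Hochberg adjustment over all genes, 7 of the 10 fell and 1 rose with iBET in Ova, and 6 fell and none rose in IC (0 higher also at an unadjusted p under 0.05 and by DESeq2 and limma). Over all genes tested, 28.9% were lower and 27.7% higher with iBET in Ova, and 29% were lower and 27.1% higher in IC. This fit does not use the pairing by mouse. With the mouse as a block, 8 ligands fell and 2 rose in Ova, and 7 fell and 0 rose in IC. Of 12465 genes, 4385 fell and 4175 rose with the block in Ova, and 4408 and 4065 in IC. The members' median log2 fold change was −1.20 in Ova and −1.37 in IC, beside medians over all genes of −0.00287 and −0.00537. Each contrast has its own DMSO libraries, and the comparisons of IC with Ova reuse the same libraries. Ltb, Lta and Tnfsf10 passed the filter on low counts through their DMSO libraries, so their part in these counts and medians is not independent of the direction. The other 7 members had at least 10 counts in each of the 20 libraries. In bulk RNA, fewer cells of a type and less RNA per cell cannot be told apart.

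**Figure D2:**
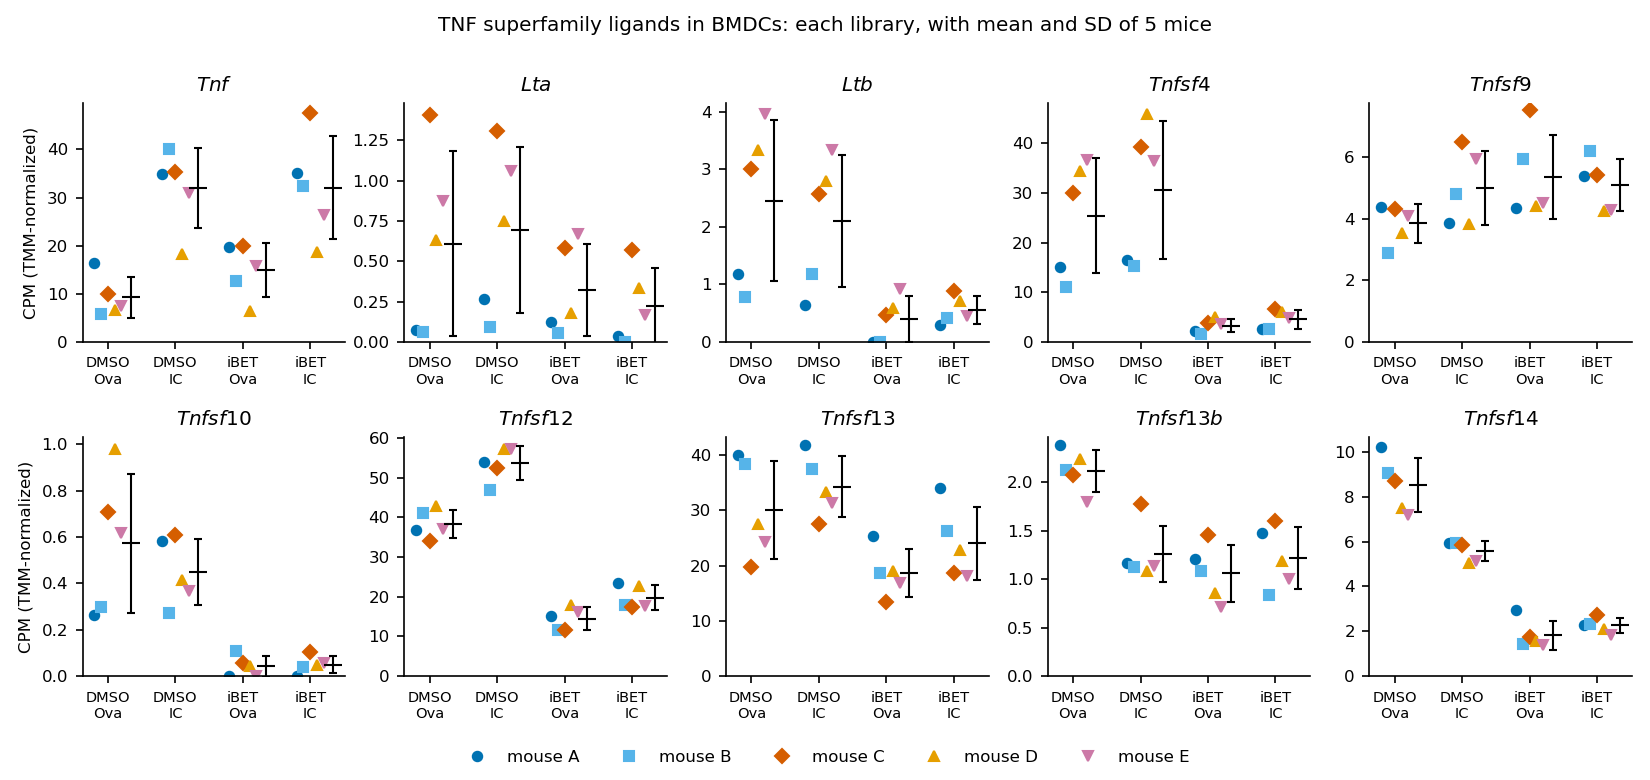
Each panel gives the CPM of 1 ligand on a linear axis from 0, with a symbol for each mouse in the 4 groups and a black dash and bar for the mean and SD of 5 mice, cut off at 0. Tnfsf4, Tnfsf12 and Tnfsf14 are lower in all iBET libraries than in any DMSO library, and Tnf is high in both IC groups.

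Tnf, the founding cytokine of the family and a driver of inflammation, was the ligand that rose most with IC. It stood at 16.3, 5.69, 9.98, 6.58 and 7.54 CPM in the DMSO Ova libraries of mice A to E, and at 34.9, 40.1, 35.4, 18.2 and 30.9 CPM in DMSO IC. With iBET it stood at 19.8, 12.6, 20.0, 6.35 and 15.8 CPM in Ova, and at 35.0, 32.4, 47.5, 18.6 and 26.4 CPM in IC. The DMSO groups did not overlap, the iBET groups did in part, and within each mouse IC was above Ova under both treatments. Tnf was 3.43-fold higher in IC than in Ova with DMSO (log2 fold change 1.78 ± 0.323 SE, adjusted p = 0.000737). With iBET it was 2.15-fold higher (1.10 ± 0.314, adjusted p = 0.0264), a call that was lost without mouse B, C or E (adjusted p = 0.0681 to 0.108). The call was kept with the mouse as a block (adjusted p = 9.45e-05). The difference between both effects was not called (interaction −0.67 ± 0.444, adjusted p = 1.00). Between iBET and DMSO, Tnf differed by 0.00539 ± 0.306 on the log2 scale in IC (adjusted p = 0.989). In Ova the difference was 0.68 ± 0.323 (adjusted p = 0.0795), higher in 4 of 5 mice. With the mouse as a block it was called (0.64, adjusted p = 0.00489), and it was also called without mouse A (adjusted p = 0.0450) or D (adjusted p = 0.0225). The iBET IC libraries remained 3.44-fold above the DMSO Ova libraries (adjusted p = 8.76e-05).

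Lta and Ltb encode the lymphotoxins, which signal as soluble Lta trimers or as membrane-bound Lta and Ltb together and are known for building lymphoid tissue. Ltb stood at 1.17, 0.771, 3.01, 3.33 and 3.95 CPM in DMSO Ova and at 0.636, 1.18, 2.57, 2.79 and 3.33 CPM in DMSO IC. With iBET it had no count in Ova in mice A and B, which allows up to 0.121 and 0.163 CPM, and stood at 0.467, 0.585 and 0.921 CPM in mice C, D and E. In iBET IC it stood between 0.296 and 0.880 CPM, from 8 to 17 counts. Mice A and B were lower than mice C, D and E in both DMSO groups. Ltb fell by 2.60 ± 0.655 on the log2 scale with iBET in Ova (6.06-fold, adjusted p = 0.00214) and by 1.96 ± 0.631 in IC (3.89-fold, adjusted p = 0.0123), lower in 5 of 5 mice each time. The call in IC was lost without mouse D or E (adjusted p = 0.0510 and 0.0617) and kept with the mouse as a block (adjusted p = 4.6e-05). Ltb passed the filter on low counts through its DMSO libraries, so these p values are not independent of the direction. IC and Ova did not differ by test with DMSO (−0.21 ± 0.553, adjusted p = 0.839) or iBET (0.43 ± 0.734, adjusted p = 0.777).

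Lta was near the limit of detection. It ranged from 0.0593 to 1.41 CPM in DMSO Ova, from 0.0908 to 1.31 in DMSO IC, from 0.0542 to 0.670 in iBET Ova and from 0 to 0.569 in iBET IC, with at most 30 counts in a library. Mice A and B held at most 5 counts of it in any library. With iBET the difference was −0.92 ± 0.826 in Ova (adjusted p = 0.358) and −1.75 ± 0.868 in IC (adjusted p = 0.0939). With the mouse as a block both were called lower (−0.85, adjusted p = 0.0240, and −1.65, adjusted p = 0.000288). The fall in Ova was called in 1 of 15 alternatives, this one, and mouse A went the other way (0.35). Lta passed the filter on low counts through its DMSO libraries, so these p values are not independent of the direction. It did not share the rise of its neighbour Tnf by test, with an IC effect of 0.20 ± 0.745 in DMSO (adjusted p = 0.894).

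T cell markers, which are of interest beside the lymphotoxins, summed to 0.474 to 1.55 CPM over 10 genes in DMSO Ova, 0.772 to 1.26 in DMSO IC, 0.0901 to 0.646 in iBET Ova and 0.278 to 0.666 in iBET IC. Cd3e was at 0 in both IC groups, and Cd8b1 was at 0 in all groups but iBET IC. The B cell markers summed to 5.33 to 13.2 CPM over both DMSO groups and 2.93 to 7.33 CPM over both iBET groups, most of it from Cd22 (7.62 CPM on average in DMSO Ova and 3.89 in iBET Ova). The NK and innate lymphoid list summed to 121 to 362 CPM in the DMSO groups and 14.4 to 56.8 CPM in the iBET groups, nearly all of it from Il7r (mean of 143 CPM in DMSO Ova and 279 CPM in DMSO IC, against 21.1 and 38.8 CPM with iBET). The other genes of that list averaged at most 0.307 CPM in any group, and Gzma was at 0 throughout. The part of these lists in the ligand results was not tested.

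Tnfsf4, the OX40 ligand that costimulates T cells, had the largest fall with iBET among the 7 ligands with at least 10 counts in each library. It stood at 15.0, 11.1, 29.9, 34.5 and 36.6 CPM in DMSO Ova and at 16.5, 15.2, 39.2, 45.9 and 36.5 CPM in DMSO IC. With iBET it stood at 2.26, 1.52, 3.79, 4.95 and 3.64 CPM in Ova and at 2.55, 2.61, 6.52, 6.01 and 4.84 CPM in IC. Each DMSO library was above each iBET library, and mice A and B were below mice C, D and E in each group. Tnfsf4 was 7.84-fold lower with iBET in Ova (log2 fold change −2.97 ± 0.420, adjusted p = 5.57e-06) and 6.90-fold lower in IC (−2.79 ± 0.409, adjusted p = 8.68e-06). The fall was of like size in mice A and B (−2.77 and −2.60) and in mice C, D and E (−2.97 and −2.78). The IC effect was 0.27 ± 0.366 with DMSO (adjusted p = 0.663) and 0.45 ± 0.435 with iBET (adjusted p = 0.571). With the mouse as a block both were called higher (0.27, adjusted p = 0.0150, and 0.48, adjusted p = 0.00645).

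Tnfsf14, known as LIGHT, a costimulatory ligand of HVEM and of the lymphotoxin β receptor, fell with iBET and, under DMSO, with IC. It stood at 10.2, 9.07, 8.71, 7.49 and 7.18 CPM in DMSO Ova and at 5.94, 5.95, 5.83, 5.04 and 5.12 CPM in DMSO IC. With iBET it stood at 2.95, 1.41, 1.75, 1.58 and 1.38 CPM in Ova and at 2.29, 2.31, 2.74, 2.10 and 1.84 CPM in IC. The DMSO Ova, DMSO IC and iBET libraries formed 3 steps with no overlap, while iBET Ova and iBET IC overlapped. With DMSO, IC lowered Tnfsf14 1.53-fold (−0.61 ± 0.160, adjusted p = 0.0108), in 5 of 5 mice, a call lost without mouse C (adjusted p = 0.0586). The call was kept with the mouse as a block (adjusted p = 0.000239). With iBET, the IC effect was 0.31 ± 0.182 (adjusted p = 0.312), and it was called higher without mouse A (0.56, adjusted p = 0.0328). iBET lowered it 4.66-fold in Ova (−2.22 ± 0.175, adjusted p = 2.23e-09) and 2.46-fold in IC (−1.30 ± 0.171, adjusted p = 2.34e-06). The iBET effects in IC and in Ova differed by 0.92 ± 0.243, which was not called (adjusted p = 0.382, and 0.106 by DESeq2) but was with the mouse as a block (0.90 ± 0.180, adjusted p = 0.0217), in the same direction in 5 of 5 mice. Of all genes tested, 0.0401% had an interaction without the block and 0.818% with it, and of the members 0 of 10 (2 at an unadjusted p under 0.05, and 0 by DESeq2 and limma) and 1 of 10.

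Tnfsf13b, or BAFF, a survival factor of B cells, was highest in DMSO Ova. It stood at 2.38, 2.13, 2.07, 2.24 and 1.80 CPM there, and at 1.17, 1.13, 1.77, 1.08 and 1.14 CPM in DMSO IC. With iBET it stood at 1.21, 1.08, 1.46, 0.856 and 0.711 CPM in Ova and at 1.48, 0.833, 1.60, 1.19 and 1.00 CPM in IC. Each DMSO Ova library was above all libraries of the other groups, which overlapped each other. It was 2.01-fold lower with iBET in Ova (−1.01 ± 0.210, adjusted p = 0.000414), but −0.0420 ± 0.213 in IC (adjusted p = 0.881). IC lowered it 1.69-fold with DMSO (−0.76 ± 0.206, adjusted p = 0.0138), which was lost without mouse A or D (adjusted p = 0.0565 and 0.0925). The call was kept with the mouse as a block (adjusted p = 0.000959). With iBET the IC effect was 0.21 ± 0.217 (adjusted p = 0.608). The difference between the iBET effects was 0.97 ± 0.300 and positive in 5 of 5 mice, yet was not called (adjusted p = 0.677, and 0.0678 with the mouse as a block).

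Tnfsf13, or APRIL, the other B cell and plasma cell survival factor, was far more abundant than Tnfsf13b. It stood at 40.1, 38.4, 19.8, 27.5 and 24.3 CPM in DMSO Ova and averaged 34.3 ± 5.52 in DMSO IC, 18.7 ± 4.38 in iBET Ova and 24.0 ± 6.53 in iBET IC. Mice A and B were the highest in DMSO Ova. The iBET and DMSO ranges overlapped under both stimuli, and within 5 of 5 mice the iBET library was the lower one. The fall was 0.68 ± 0.207 on the log2 scale in Ova (adjusted p = 0.00837, lost without mouse B at 0.0651). It was 0.51 ± 0.205 in IC (adjusted p = 0.0403, lost without mouse B, D or E at 0.0999 to 0.121). Both calls were kept with the mouse as a block (adjusted p = 4.94e-07 and 5.68e-06). IC effects of 0.19 ± 0.204 with DMSO (adjusted p = 0.564) and 0.36 ± 0.207 with iBET (adjusted p = 0.283) were called higher with the mouse as a block (adjusted p = 0.0266 and 0.00272), and the effect with iBET also with surrogate variables (0.22, adjusted p = 0.0457).

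Tnfsf12, or TWEAK, which acts on Fn14 in tissue repair and inflammation, stood at 36.9, 41.1, 34.1, 42.8 and 37.0 CPM in DMSO Ova and at 54.0, 46.9, 52.5, 57.3 and 57.2 CPM in DMSO IC. With iBET it stood at 15.2, 11.5, 11.6, 17.9 and 16.2 CPM in Ova and at 23.5, 17.8, 17.5, 22.8 and 17.6 CPM in IC. The DMSO groups did not overlap each other or either iBET group. iBET lowered Tnfsf12 2.64-fold in Ova (−1.40 ± 0.122, adjusted p = 8.34e-09) and 2.70-fold in IC (−1.43 ± 0.120, adjusted p = 5.08e-09). IC raised it 1.40-fold with DMSO (0.48 ± 0.117, adjusted p = 0.00685) and 1.37-fold with iBET (0.45 ± 0.122, adjusted p = 0.0202), in 5 of 5 mice each time. The call with iBET was lost without mouse A, B or C (adjusted p = 0.0574 to 0.0996) and kept with the mouse as a block (adjusted p = 0.00113). Of the exonic bases of Tnfsf12 and Tnfsf13, 48.3% and 60% also belong to the read-through gene Tnfsfm13 on the same strand, which had 0.725 to 0.825 times their summed counts. An antisense gene, Tnfsf13os, overlaps both. How reads shared by such genes were counted is not given in the sources used here. The levels of Tnfsf12 and Tnfsf13 and the split of reads between them are therefore uncertain. Tnfsfm13 itself was lower with iBET by −0.96 ± 0.148 in Ova and −0.87 ± 0.147 in IC (adjusted p = 1.66e-05 and 4.54e-05).

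Tnfsf9, the CD137 ligand that costimulates T cells, stayed between 2.90 and 7.53 CPM in all libraries. It ranged from 2.90 to 4.38 CPM in DMSO Ova, 3.83 to 6.49 in DMSO IC, 4.36 to 7.53 in iBET Ova and 4.24 to 6.21 in iBET IC, and the groups overlapped. It was 1.38-fold higher with iBET in Ova (0.46 ± 0.185, adjusted p = 0.0386), in 4 of 5 mice. That call was lost without mouse B, C or D (adjusted p = 0.0573 to 0.145) and with scaling by library size only (adjusted p = 0.0726). It was kept with the mouse as a block (adjusted p = 0.0164). In IC the iBET effect was 0.0394 ± 0.182 (adjusted p = 0.870). The antisense gene Gm11110 overlaps it.

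Tnfsf10, or TRAIL, an inducer of apoptosis, was scarce with DMSO and nearly absent from the iBET counts. The DMSO Ova libraries held 7, 5, 15, 28 and 12 counts and the DMSO IC libraries 11, 6, 13, 10 and 9. The iBET Ova libraries held 0, 2, 1, 1 and 0 counts and the iBET IC libraries 0, 1, 2, 1 and 1. Summed over mice and scaled, it was 15.8-fold lower in Ova (95% exact interval of 5.90 to 59.8, counting error only) and 9.86-fold lower in IC (3.95 to 31.7). The fitted log2 fold changes were −3.75 ± 0.600 and −3.15 ± 0.597 (adjusted p = 2.42e-05 and 0.000157), which rest on 0 to 2 counts a library on the iBET side. Tnfsf10 passed the filter on low counts through its DMSO libraries, so these p values are not independent of the direction. The IC effect with DMSO was −0.38 ± 0.398 (adjusted p = 0.550).

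**Figure D3:**
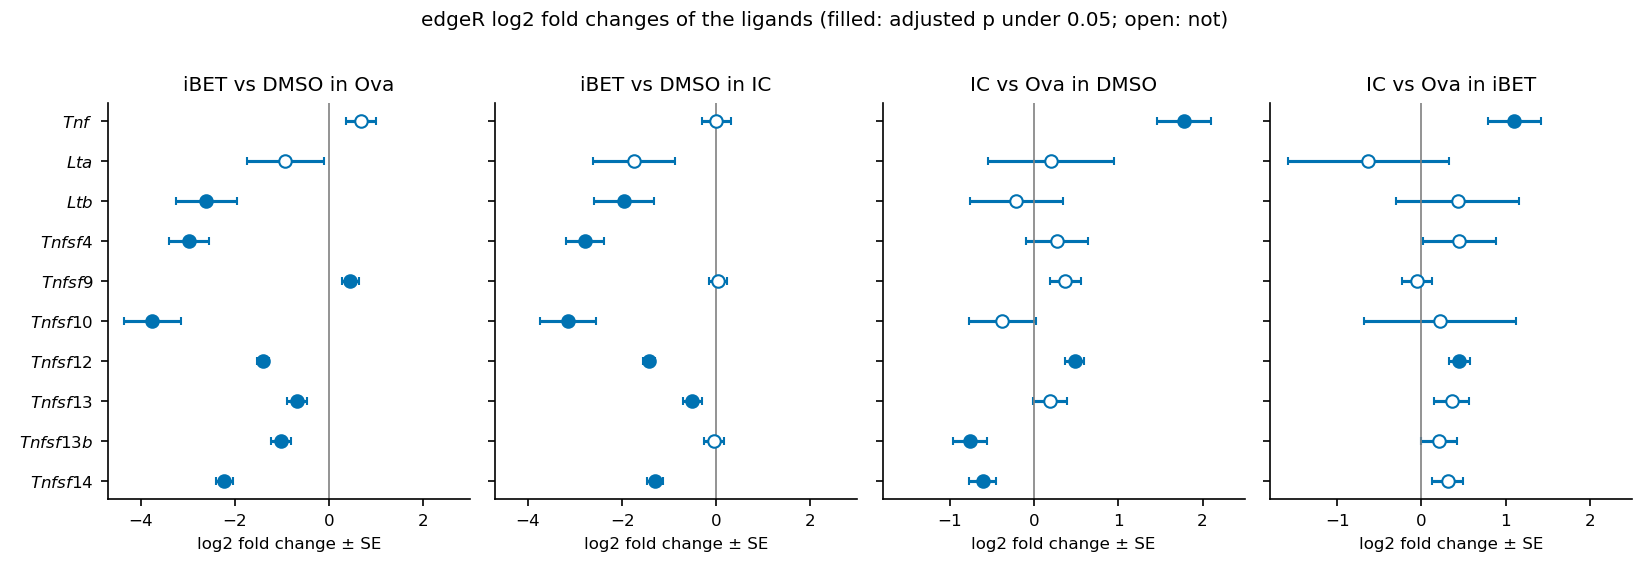
Each panel gives the edgeR log2 fold change of the 10 ligands in 1 comparison on the horizontal axis, with bars of 1 SE. Filled symbols have an adjusted p under 0.05. In the iBET panels Tnfsf10, Tnfsf4 and Ltb lie farthest to the left and Tnf and Tnfsf9 at or right of 0, and in the IC panels Tnf lies farthest to the right.

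For IC against Ova, 2 of the 10 ligands rose with DMSO (Tnf and Tnfsf12) and 2 fell (Tnfsf13b and Tnfsf14). Over all genes, 9.59% rose and 10.7% fell. With iBET Tnf and Tnfsf12 rose and none fell (0 lower also at an unadjusted p under 0.05 and by DESeq2 and limma), beside 5.19% and 6.63% of all genes, and 4 ligands were called with the mouse as a block (Tnf, Tnfsf12, Tnfsf13 and Tnfsf4). Without mouse B or C, 0 ligands were called in iBET, and without mouse E 1. Scaling by library size only put the median of all genes at −0.13 with DMSO and −0.12 with iBET, from −0.0237 and −0.0141. The calls over all genes became 582 higher and 2593 lower with DMSO, from 1196 and 1335. With iBET they became 313 higher and 2030 lower, from 647 and 827. Relative to those medians of −0.13 and −0.12, the log2 fold change of Tnf was 1.80 with DMSO and 1.12 with iBET. That of Tnfsf12 was 0.51 and 0.46. Tnfsf13b stood at −0.73 and Tnfsf14 at −0.59 with DMSO on that scale, and all of these calls were kept. Between iBET IC and DMSO Ova, 1 ligand was higher (Tnf) and 6 were lower (Ltb, Tnfsf4, Tnfsf10, Tnfsf12, Tnfsf13b and Tnfsf14), beside 29.6% and 31.3% of all genes. The median of all genes in that comparison was −0.18 with library size only, from −0.0177. Calls over all genes went from 3689 higher and 3899 lower to 2389 and 5101. With the mouse as a block, Lta (adjusted p = 0.00127) and Tnfsf13 (adjusted p = 0.00138) were also called lower there, and Tnfsf9 higher (adjusted p = 0.0228). Ltb, Lta and Tnfsf10 passed the filter on low counts through their DMSO libraries. Their lower calls against DMSO Ova, and their part in these counts, are thus not independent of the direction.

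**Figure D4:**
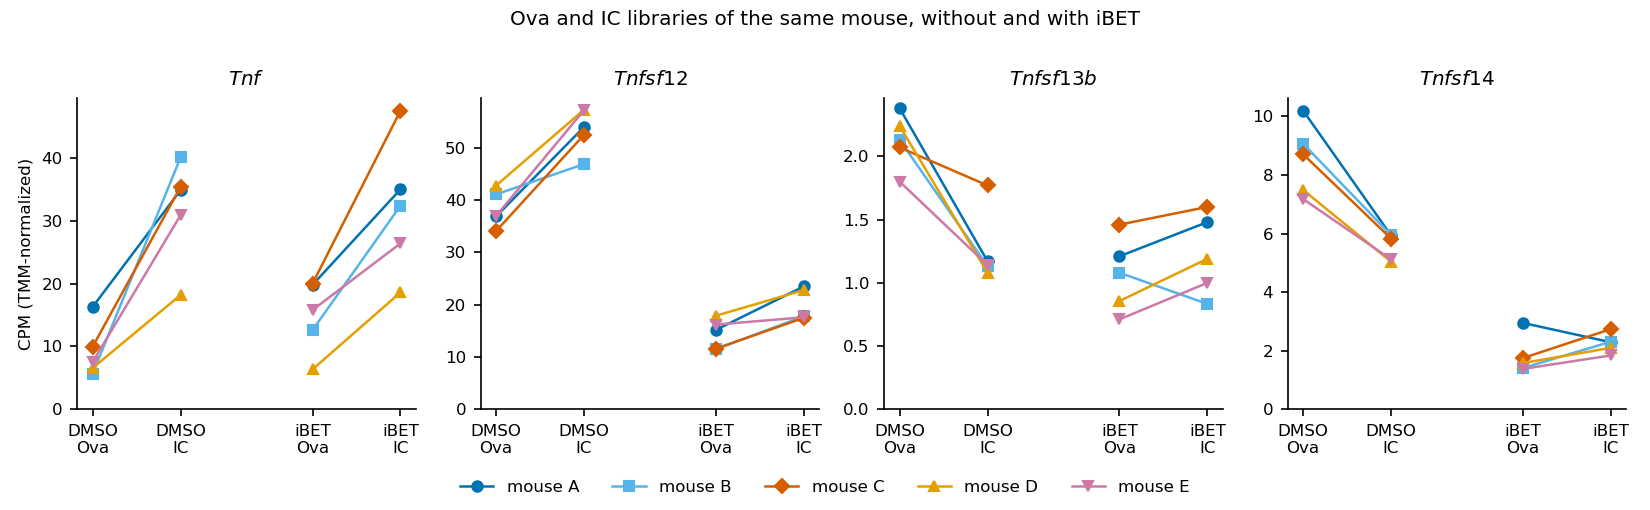
Lines join the Ova and the IC library of each mouse, with DMSO on the left and iBET on the right of each panel, in CPM on a linear axis from 0. All 5 lines of Tnf and Tnfsf12 go up under both treatments, all 5 lines of Tnfsf13b and Tnfsf14 go down with DMSO, and 4 of 5 of each go up with iBET.

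Of 8 further TNF superfamily ligands, 3 passed the filter on low counts (Tnfsf8, Tnfsf15 and Cd70). They passed it through their DMSO libraries, so that their fall with iBET is not independent of the filter and is given by its values. Tnfsf8, the CD30 ligand, went from 11.9 ± 5.50 CPM in DMSO Ova to 0.489 ± 0.332 in iBET Ova (log2 fold change −4.63 ± 0.429). In IC it went from 7.72 ± 2.05 with DMSO to 0.389 ± 0.197 with iBET (−4.35 ± 0.443). Tnfsf15, or TL1A, costimulates T cells and lies 86.2 kb from Tnfsf8 on chromosome 4. It fell by 3.33 ± 0.260 on the log2 scale in Ova and by 3.19 ± 0.243 in IC. Cd70, the ligand of CD27, had 70 counts in DMSO Ova and 1 in iBET Ova, and 75 in DMSO IC and 3 in iBET IC, which is 66.1-fold (exact interval 11.5 to 2650) and 25.2-fold (8.29 to 125) lower by summed counts. In edgeR 0 of the 3 differed between IC and Ova (1 higher with DMSO at an unadjusted p under 0.05, and 0 by DESeq2 and limma), whereas with the mouse as a block Tnfsf15 was higher (adjusted p = 0.0185) and Tnfsf8 lower (adjusted p = 0.00292) in IC with DMSO. Over all genes, 9.59% rose and 10.7% fell with IC in DMSO, and 5.19% and 6.63% in iBET. Of the untested ligands, Tnfsf11, Tnfsf18 and Fasl had at most 6 counts in a group, and Cd40lg and Eda had none.

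The receptors of the ligands were read from the same libraries, in which 20 of 28 TNF receptor superfamily genes were tested. With iBET 14 fell and 4 rose in Ova, and 15 fell and 4 rose in IC, with medians of −1.03 and −1.07. These counts stand beside 28.9% lower and 27.7% higher of all genes in Ova, and 29% and 27.1% in IC. They include Tnfrsf8, which had 0 to 2 counts in each iBET library and at most 20 in a DMSO library, and so passed the filter through its DMSO libraries. Both receptors of Tnf fell. Tnfrsf1b averaged 496 ± 113 CPM in DMSO Ova and 265 ± 30.9 in iBET Ova (−0.91 ± 0.139, adjusted p = 1.56e-05), and 747 ± 128 in DMSO IC and 367 ± 35.6 in iBET IC (−1.02 ± 0.140, adjusted p = 3.56e-06). Tnfrsf1a averaged 108 ± 5.79 CPM in DMSO Ova and fell by 0.45 ± 0.0689 in Ova and 0.44 ± 0.0689 in IC (adjusted p = 1.39e-05 and 1.84e-05). The lymphotoxin β receptor gene Ltbr fell by 0.32 in both (adjusted p = 0.00154 and 0.00166). Tnfrsf14, which encodes HVEM, fell by 1.49 ± 0.190 in Ova and 1.01 ± 0.192 in IC (adjusted p = 1.47e-06 and 0.000160), and so moved the same way as its ligand Tnfsf14.

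Among the receptors of the costimulatory ligands, Tnfrsf9 (CD137) fell by 1.23 ± 0.270 in Ova and 1.11 ± 0.269 in IC (adjusted p = 0.000663 and 0.00161). Tnfrsf4 (OX40) was scarce, at 2.87 ± 1.69 CPM in DMSO Ova. Its calls with iBET were −1.26 in Ova (adjusted p = 0.0447) and −1.57 in IC (adjusted p = 0.0153). In mice A and B only, the effects were −0.17 in Ova and −0.24 in IC, against −1.50 and −1.95 in mice C, D and E. Mouse A was not lower with iBET under either stimulus (0.01 and 0.41). The call in Ova was lost without mouse B, C, D or E (adjusted p = 0.0643 to 0.161). The call in IC was lost without D or E (0.0778 and 0.0898). Both were kept with the mouse as a block (adjusted p = 0.00148 and 0.000464). Of the receptors of Tnfsf13 and Tnfsf13b, Tnfrsf13b (TACI) was lowered most clearly by iBET, from 8.33 ± 0.833 to 2.90 ± 0.0809 CPM in Ova (−1.52 ± 0.121, adjusted p = 2.49e-09) and from 5.36 ± 0.861 to 1.56 ± 0.255 CPM in IC (−1.78 ± 0.128, adjusted p = 6.16e-10). Tnfrsf13c and Tnfrsf17 had at most 9 and 2 counts in a group and were not tested. Fas, a death receptor, fell by 0.88 ± 0.151 in Ova (adjusted p = 5.32e-05) and by 1.14 ± 0.151 in IC (adjusted p = 2.57e-06).

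The 4 receptors that rose with iBET were receptors of Tnfsf12 or Tnfsf10. Tnfrsf12a (Fn14) went from 3.76 ± 0.732 to 6.75 ± 0.798 CPM in Ova (0.84 ± 0.132, adjusted p = 1.98e-05) and from 3.24 ± 0.469 to 7.32 ± 0.715 CPM in IC (1.17 ± 0.133, adjusted p = 3.44e-07). Tnfrsf10b, the death receptor of TRAIL, was higher by 0.51 ± 0.145 and 0.54 ± 0.142 (adjusted p = 0.00545 and 0.00303). The decoy receptors Tnfrsf22 (1.70 ± 0.205 and 1.57 ± 0.203) and Tnfrsf23 (1.42 ± 0.204 and 1.11 ± 0.201) rose in 5 of 5 mice (adjusted p of at most 9.85e-05). These receptors rose where their ligands Tnfsf12 and Tnfsf10 fell. The fall of Tnfsf10 rests on 0 to 2 counts in each iBET library and on a filter passed through its DMSO libraries. A link between the changes of receptors and ligands was not tested. The list and its members were chosen with earlier results of these data known.

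**Figure D5:**
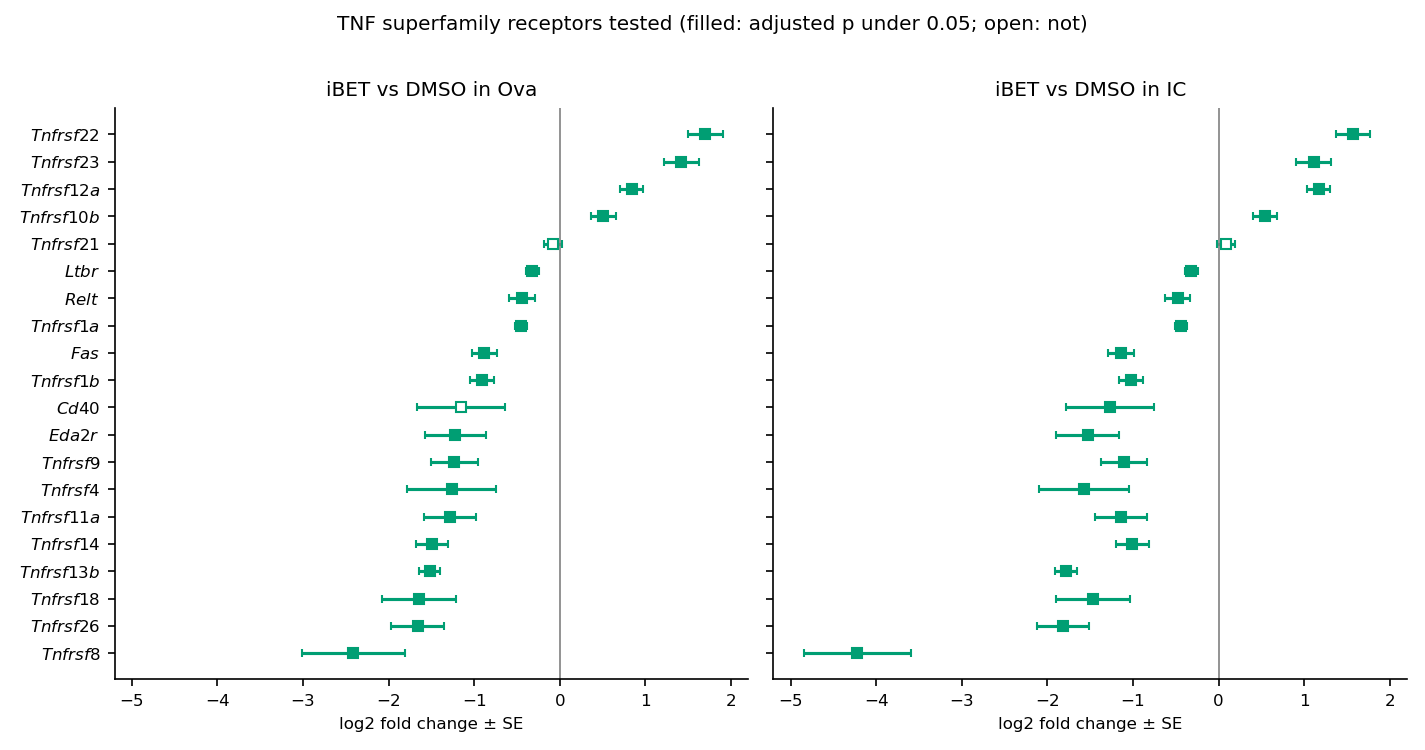
The edgeR log2 fold change with iBET is given with 1 SE for the 20 receptors tested, in Ova on the left and in IC on the right, in the order of their effect in Ova. Filled symbols have an adjusted p under 0.05. Tnfrsf22, Tnfrsf23, Tnfrsf12a and Tnfrsf10b are the filled symbols right of 0, and Tnfrsf8 lies farthest to the left.

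With IC, 1 receptor rose and 2 fell with DMSO, and 5 rose and 4 fell with the mouse as a block. Over all genes, 9.59% rose and 10.7% fell, and with the block 2284 and 2471 of 12465. Tnfrsf1b rose by 0.59 ± 0.139 on the log2 scale with DMSO (adjusted p = 0.00533), as did Tnf. With iBET its rise was 0.47 ± 0.139 (adjusted p = 0.0306), a call lost whichever mouse was left out (adjusted p = 0.0544 to 0.114). The call was kept with the mouse as a block (adjusted p = 0.000161). Tnfrsf13b fell by 0.64 ± 0.116 with DMSO and by 0.89 ± 0.131 with iBET (adjusted p = 0.000765 and 0.000179). Tnfrsf14 fell by 0.65 ± 0.182 with DMSO (adjusted p = 0.0163), which was lost without mouse B, C or D (adjusted p = 0.0660 to 0.126). The call was kept with the mouse as a block (adjusted p = 0.00186). With iBET 1 receptor rose and 1 fell, and 4 rose and 1 fell with the mouse as a block. Over all genes, 5.19% rose and 6.63% fell with IC in iBET, and with the block 1766 and 1835 of 12465. Between iBET IC and DMSO Ova, 4 receptors were higher and 14 lower, beside 29.6% and 31.3% of all genes. The lower ones include Tnfrsf8, which passed the filter on low counts through its DMSO libraries.

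All 18 genes of the receptor adaptor and death pathway list were tested. With iBET 5 rose and 9 fell under both stimuli, where 27.7% of all genes rose and 28.9% fell in Ova, and 27.1% and 29% in IC. The share that rose was thus near that of all genes. Birc3, an inhibitor of apoptosis that NF-κB induces, fell by 1.51 ± 0.108 in Ova and 1.55 ± 0.108 in IC (adjusted p = 6.23e-10 and 3.69e-10). Casp8, the initiator caspase of death receptors, fell by 0.54 ± 0.0577 and 0.62 ± 0.0578 (adjusted p = 1.50e-07 and 2.13e-08). Tradd, the adaptor of Tnfrsf1a, was higher by 0.70 ± 0.108 and 0.77 ± 0.109, and the kinase Ripk1 by 0.39 and 0.43 (adjusted p of at most 0.000142 in either stimulus). With IC and DMSO 5 rose and none fell (0 lower also at an unadjusted p under 0.05 and by DESeq2 and limma), with the smallest adjusted p for Traf3 (0.42 ± 0.0691, adjusted p = 0.000273) and Cflar (0.56 ± 0.110, adjusted p = 0.00137). With IC and iBET 3 rose and none fell (1 lower at an unadjusted p under 0.05, 0 by DESeq2 and limma, and 4 higher and 1 lower with the mouse as a block), among them Traf3 (0.38, adjusted p = 0.00131) and the NF-κB inhibitor Tnfaip3 (1.01 ± 0.208, adjusted p = 0.00367). Over all genes, 9.59% rose and 10.7% fell with IC in DMSO, and 5.19% and 6.63% with IC in iBET. Between iBET IC and DMSO Ova 7 of the 18 were higher and 7 lower, beside 29.6% and 31.3% of all genes.

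Of the genes that cut or mature ligands, 7 of 8 were tested. Adam17, the protease that releases soluble TNF, averaged 189 CPM in DMSO Ova and 253 CPM in DMSO IC and rose with IC by 0.42 ± 0.114 (adjusted p = 0.0136), which was lost without mouse B, C or D (adjusted p = 0.0566 to 0.0709). With iBET its IC effect was 0.13 ± 0.114 (adjusted p = 0.510). Furin, a convertase that cuts several ligands, rose with IC by 1.03 ± 0.0811 with DMSO and 0.72 ± 0.0808 with iBET (adjusted p = 5.28e-08 and 7.38e-06). Rhbdf2, a partner of Adam17, rose with IC by 0.43 ± 0.0996 with DMSO (adjusted p = 0.00448), and Sppl2b, an intramembrane protease, fell by 0.43 ± 0.0796 (adjusted p = 0.000828). With IC, 3 rose and 1 fell with DMSO and 2 rose and 1 fell with iBET. Over all genes, 9.59% rose and 10.7% fell with IC in DMSO, and 5.19% and 6.63% in iBET. With iBET 2 rose and 1 fell under both stimuli, and with the mouse as a block 3 and 2 in Ova and 2 and 3 in IC. Of all genes, 27.7% rose and 28.9% fell with iBET in Ova, and 27.1% and 29% in IC. The share that rose with iBET was near that of all genes. With the block, 4175 of 12465 genes rose and 4385 fell in Ova, and 4065 and 4408 in IC. Sppl2b rose by 0.51 ± 0.0786 in Ova and 0.63 ± 0.0795 in IC, and Furin fell by 0.52 ± 0.0805 in IC (adjusted p of at most 1.53e-05). Of the smaller effects, the fall of Furin in Ova (−0.21, adjusted p = 0.0320) was lost without mouse A, B or C (0.0945 to 0.256), and the rise of Rhbdf2 without mouse E in Ova (0.0984) and without B, C or E in IC (0.0639 to 0.176). The effect of iBET on Adam17 was 0.15 ± 0.114 in Ova (adjusted p = 0.291, and 0.0155 with the mouse as a block) and −0.14 ± 0.114 in IC (adjusted p = 0.306, and 0.0176 with the block).

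Markers of other myeloid cells were read in the same libraries. The macrophage markers summed to 1940 to 2650 CPM over both DMSO groups and to 1440 to 2190 CPM over both iBET groups, with 10 of 10 detected. The dendritic cell markers summed to 8900 to 12300 CPM with DMSO and to 11000 to 15600 CPM with iBET. The neutrophil markers ranged from 468 to 859 CPM with DMSO and 430 to 914 CPM with iBET, nearly all of it from Mmp8 (means of 546 to 650 CPM), while S100a8 and S100a9 averaged at most 12.0 CPM in any group. The mast cell and basophil markers ranged from 17.9 to 49.8 CPM with DMSO and from 13.6 to 41.9 CPM with iBET. The plasmacytoid markers ranged from 55.8 to 89.5 CPM with DMSO and 42.3 to 64.5 CPM with iBET, while Siglech was at 0 in all 4 groups. The part of these lists in the ligand results was not tested.

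Genes with the most similar profiles were found for each of the 9 members that passed the test in any comparison, by the root mean square difference of centred log2 CPM over the 20 libraries among 9776 genes with a mean of at least 100 counts. These are descriptions, since all genes share the same libraries and their depth. Nearest to Tnf were Rgcc (0.359) and Lrp8 (0.452), where the SD of Tnf itself was 0.929. Tnfsf12 had the closest match, Tfeb at 0.115 (own SD 0.773), followed by Amz1 at 0.197. Tnfsf13 was matched by Lmna (0.132) and Emp3 (0.159), and Tnfsf4 by Tnip3 (0.339) and Il18rap (0.353). For Tnfsf14 the nearest were 6330416G13Rik (0.288) and Tmem198b (0.302), and for Ltb Cdh2 (0.549) and Npr1 (0.583). Tnfsf9 (Eef1e1, 0.203), Tnfsf13b (Ntpcr, 0.317) and Tnfsf10 (A530064D06Rik, 0.372) had own SDs of 0.318, 0.459 and 1.15.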

How the data were processed

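RNA-seq of BMDCs from 5 mice in 4 groups (20 libraries) was analysed. Per the labels' processing notes and the methods, the authors demultiplexed with CASAVA, checked reads with FastQC, trimmed them with Trim Galore, used HISAT2 for alignment to mm10 and featureCounts for counting. The labels state that cells went into lysis buffer by sorting. The authors deposited raw counts and, as signal values, those counts after division by 1 size factor per library. The annotation, the strand setting and the treatment of reads over several genes are not given in the sources used here.

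Counts were filtered with filterByExpr, TMM-normalized and tested with the edgeR 4.0.16 quasi-likelihood test (R 4.3.3) in a fit of all libraries with group as the only factor. The Benjamini-Hochberg adjustment ran over 12465 genes, at a threshold of 0.05. The methods name DESeq2 and the removal of batch effects with sva, without stating the design matrix or what the batches were. The fit by group alone was therefore taken as the main one, with the mouse block among the alternatives. CPM use the TMM-effective library size, log2 CPM for profiles and within-mouse differences a prior count of 2, and CPM per kb the union of GENCODE M21 exons. A count of 0 allows up to 3 counts. Intervals (95%, exact) cover counting error only. The edgeR fits without and with the mouse as a block were tried on simulated counts, with changes in iBET Ova only and no mouse effect. Only iBET against DMSO in Ova was checked, not the other comparisons, the interaction, DESeq2 or limma.

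The labels give the same mouse letters in each group. Deviations from the group means correlated within each mouse (mean correlation across genes 0.524, lowest 0.307, over 30 pairs, and −0.156 between mice), so the mouse pairs the samples. Over 40 pairs of libraries within groups, the lowest chi-square per degree of freedom was 12.54, so no pair was within sampling noise. Alternatives were the mouse as a block, DESeq2 1.42.0 without and with the block, DESeq2 size factors, library size only, 3 surrogate variables (sva 3.50.0), other filters, fits of the compared groups alone, limma 3.58.1 on the deposited signal values with a pseudocount of 1, mice A and B only, mice C, D and E only, and each mouse left out.

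The members, lists and tests were chosen with earlier results of these data known. Named are every member, the receptors of the members, Adam17, up to 2 genes that rose and 2 that fell with the smallest adjusted p in each list and main comparison, and the genes of most similar profile. The members' further ligands Tnfsf11, Tnfsf18, Fasl, Cd40lg and Eda, and marker genes, were named to account for their lists, and Tnfrsf8 after its values were seen. Ly6g, a neutrophil marker, was not analysed here. Some marker genes are not reported here.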

Additional observations from a re-analysis of the deposited data

Results flagged for a closer look

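Tnfsf13b in DMSO IC had 1 library far from the other 4. Mouse C stood at 1.77 CPM (38 counts), where the others stood between 1.08 and 1.17 CPM (22 to 28 counts). On the scale of log2 CPM, its gap to the next library was 0.851 of the range of the group. Chance flags about 1 in 20 such sets, and 40 sets of a member and a group were examined. Without mouse C, the fall of Tnfsf13b with IC in DMSO kept its direction and its call.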

How the results depend on the processing

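The counts of ligands called were within 1.5 times the reported ones except as follows. For iBET against DMSO in IC, 3 were called in mice A and B only, from 6. For IC against Ova in DMSO, 1 was called in mice A and B only, from 4. For IC against Ova in iBET, from 2, the count was 4 with the mouse as a replicate block (edgeR and DESeq2 alike), 1 in a fit of the compared groups alone, 0 in mice A and B only and in mice C, D and E only, and 0 to 2 with each mouse left out. For the interaction it was 1 instead of 0 with the block in edgeR and DESeq2 (Tnfsf14), and 0 by DESeq2 without it. With the pairing by mouse, the ligands gained the calls given beside their values, and the block changed no other call of a ligand. Signs changed only for effects near 0 that were not called. For Tnf, iBET in IC, the log2 fold change was −0.0201 with the replicate block, −0.0432 with library size only, −0.137 in mice A and B only, −0.0165 with DESeq2 and the block, −0.00773 with limma, and −0.130 to 0.118 with each mouse left out. For Tnfsf9 it was −0.0144 with library size only, −0.190 in mice C, D and E and −0.0560 to 0.166 with mice left out in IC, and for its IC effect in iBET 0.0964 with surrogate variables, 0.192 in mice A and B and −0.140 to 0.0774 with mice left out. For Tnfsf13b, iBET in IC, it was 0.0279 in mice A and B and −0.152 to 0.0607 with mice left out. For Tnfsf13 it was −0.000131 for IC in DMSO in mice A and B and −0.112 for the interaction in mice C, D and E. For the interaction of Tnfsf12 it was 0.266 in mice A and B and −0.143 to 0.0892 with mice left out, and for Tnfsf10, IC in iBET, −0.162 to 0.894. The causes were not tested. Lta and Tnfsf10 did not pass the low-count filter in mice A and B only, with a minimum of 1 CPM in 5 libraries or in most fits of the compared groups alone, nor Tnfsf10 without mouse C, so they have no value there. DESeq2 gave no adjusted p for Tnfsf10 (IC in iBET, and the interaction with the block) and Lta (the interaction with the block). Over all values of single ligands under an alternative, 878 kept direction and side of the threshold, 35 lost a call, 35 gained one and 22 changed sign. Depth limits Lta, Ltb and Tnfsf10, which had fewer than 10 counts in some libraries.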
